A study of Mus musculus with 3 samples.

Results

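The genes examined here encode histone lysine methyltransferases of the MLL family (Kmt2a to Kmt2e), their SET1 relatives (Setd1a and Setd1b), and Setd2, Nsd1 and Dot1l. Distinct peaks of 5-hydroxymethylcytosine (5hmC) were taken where the midpoint lay in the span of any of these 10 genes or within 5 kb of it, which gave 205 of 208468 peaks (0.0983%). The genes were chosen by name rather than by a cut on their peaks, though earlier results of these data were known.

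The study mapped 5hmC in mouse bone marrow cells with 3 samples. The leukaemia group, called NIDF-AML, has 2 samples of acute myeloid leukaemia (AML) cells driven by FLT3-ITD, NPMc, IDH2/R140Q and DNMT3A/R882H together, and 1 sample is of normal marrow cells with no allele or agent named. The labels name no mouse strain, age, vector or promoter. The lists deposited for the leukaemia samples were used (a list for normal marrow was not analysed here), and since their 223267 lines are identical they count as 1 list. The headers name the library with index 4 as treatment in both lists and the libraries with index 5 and index 6 as the controls. The labels do not say which sample carries which index, so the peaks may be those of leukaemia or of normal marrow, and no comparison between the groups and no test between replicates could be made. Intervals are exact Poisson or Wilson intervals at 95%, cover counting error only and treat peaks as independent. Order-statistic intervals, given for medians, instead describe the spread over chosen genes, which are not replicates. Peaks have no score and read depth is unknown, so a gene stretch can be called free only of listed peaks. The control libraries may themselves hold 5hmC, and if they were used in the calling, a peak marks an excess over them.

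5hmC is made from 5-methylcytosine by the TET enzymes and is found mostly in the bodies of genes, while CpG-rich gene starts usually carry little methylated cytosine. Methylation of histone H3 is written by separate families of enzymes: MLL and SET1 proteins act on lysine 4 at promoters and enhancers, SETD2 and NSD1 on lysine 36 in gene bodies and between genes, and DOT1L on lysine 79 of transcribed genes. In blood, KMT2A maintains the expression of HOXA genes and MEIS1, its gene is broken and fused to other genes in many acute leukaemias, and DOT1L is needed by the resulting fusion proteins. The marrow genes Mpo, Elane, Lyz2, Csf1r, Cd79a and Ptprc had 13, 11, 13, 34, 13 and 19 peaks within 5 kb. Per kb of span plus flanks these were 0.630, 0.924, 0.882, 0.956, 0.905 and 0.155, against a median of 0.107 over all protein-coding genes. Alb, Snap25, Syt1 and Gad1, genes of liver and neurons, had 0 each, where 73.1% of protein-coding genes had a peak.

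The starts of 6 of these genes, those with a RefSeq window, are rich in CpG, the site that is methylated and then oxidised. No peak overlapped any of these 6 windows, and the sequences before 4 of the 6 starts are shown. RefSeq windows of 300 bases around the start (250 before and 50 after, assembly GRCm38.p6) matched 6 of the 10 genes. Only the bases before the annotated gene span are printed, 5′ to 3′ on the strand of the gene, with each CpG in capitals. They are Setd1a (chr7:127777139-127777388, plus strand, 25 CpG in 250 bases), Dot1l (chr10:80754953-80755100, plus strand, 23 CpG in 148 bases), Kmt2a (chr9:44881353-44881539, minus strand, 23 CpG in 187 bases) and Kmt2c (chr5:25498856-25499033, minus strand, 32 CpG in 178 bases).
Setd1a: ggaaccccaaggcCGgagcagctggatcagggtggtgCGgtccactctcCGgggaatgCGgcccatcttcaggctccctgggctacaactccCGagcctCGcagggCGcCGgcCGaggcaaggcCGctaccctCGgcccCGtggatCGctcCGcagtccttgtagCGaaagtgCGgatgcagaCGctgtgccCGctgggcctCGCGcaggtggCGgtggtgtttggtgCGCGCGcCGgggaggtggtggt
Dot1l: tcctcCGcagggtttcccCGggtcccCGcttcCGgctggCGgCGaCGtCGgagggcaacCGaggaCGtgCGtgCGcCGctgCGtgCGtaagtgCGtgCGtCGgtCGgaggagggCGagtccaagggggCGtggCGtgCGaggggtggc
Kmt2a: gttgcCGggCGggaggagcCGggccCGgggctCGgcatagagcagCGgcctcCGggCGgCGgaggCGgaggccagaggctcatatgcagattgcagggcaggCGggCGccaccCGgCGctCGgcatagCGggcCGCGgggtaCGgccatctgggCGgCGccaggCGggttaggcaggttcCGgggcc
Kmt2c: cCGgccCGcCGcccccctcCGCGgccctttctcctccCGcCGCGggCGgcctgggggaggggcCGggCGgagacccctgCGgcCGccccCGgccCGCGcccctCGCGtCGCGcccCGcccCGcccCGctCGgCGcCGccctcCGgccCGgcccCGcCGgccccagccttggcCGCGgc

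All 10 genes had a peak in the gene body, which 66.6% of the 21779 protein-coding genes had, and so all 10 had one within 5 kb, as 73.1% of protein-coding genes did. The bodies held 164 of the 205 peaks and the 5 kb flanks held 41. The median was 19.5 peaks per gene, against 4 over all protein-coding genes. Per kb of span plus flanks the median was 0.344 peaks for the 10 genes (order-statistic interval 0.160 to 0.611) and 0.107 for all protein-coding genes, a 3.23-fold difference. Pooled over genes the contrast was smaller, at 0.249 per kb for the 10 genes and 0.139 for all protein-coding genes. The density of 9 of the 10 genes was above the median of all genes, as it was for 50.0% of all genes, and Kmt2c was the exception. Each gene had more peaks than the median of the 500 protein-coding genes nearest to it in span, which 44.6% of all protein-coding genes had. By how much differed widely, from 13 against 11.5 peaks for Kmt2c to 28 against 5 for Setd1b.

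**Figure D1:**
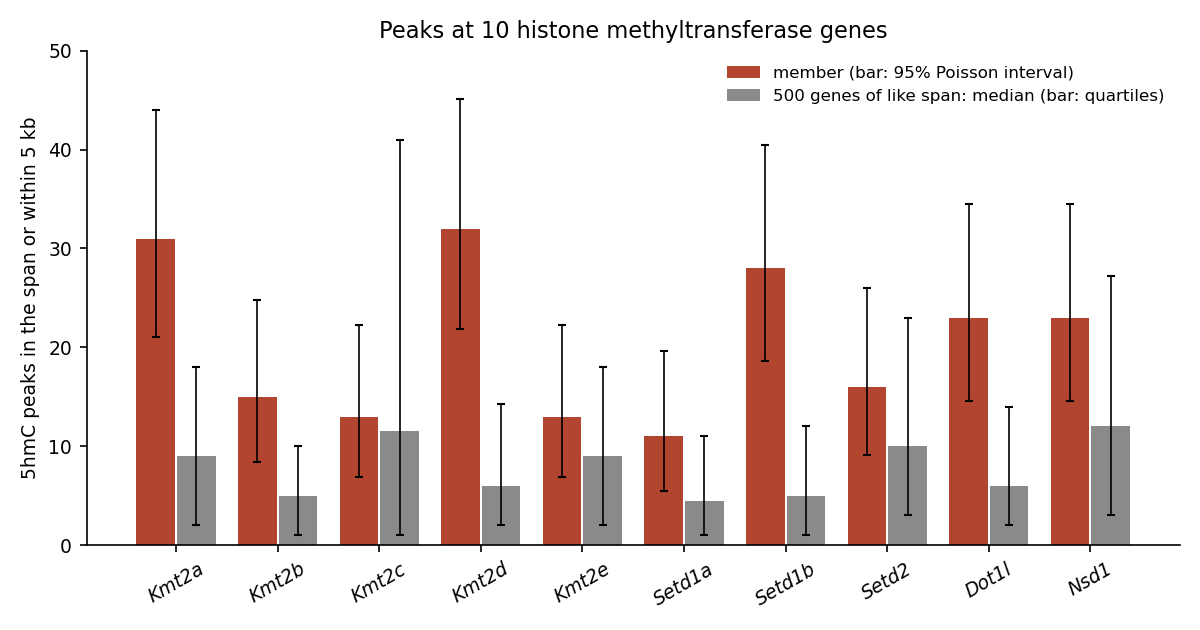
Number of 5hmC peaks in the gene span or within 5 kb (vertical axis) for each of the 10 genes, with exact Poisson intervals at 95%, beside the median and quartiles of the 500 protein-coding genes nearest in span. Kmt2d, Kmt2a and Setd1b stand highest with 32, 31 and 28 peaks, and Kmt2c, with 13, is close to the median of 11.5 for genes of its span.

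Kmt2a, which encodes the methyltransferase MLL1, spans 78.0 kb on chromosome 9 (44803355 to 44881352) and had 31 peaks within 5 kb (Poisson interval 21.1 to 44.0). Of these, 28 lay in the body and 3 beyond its lower-coordinate end, which is the end of the gene, since it lies on the minus strand. Of the 500 genes nearest in span, 88.4% had fewer peaks and their median was 9. Peaks ran through the whole gene: the longest stretch of the body without one was 12.3 kb, or 15.7% of the span, and 87.4% of genes of like span had a stretch that was a larger share of theirs. A gene with no peak counts there with its whole span, so this share partly follows from the number of peaks. With the span cut into 5 equal parts, the part nearest to the start held 10 of the 28 body peaks, more than any other part.

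Kmt2b encodes MLL2, the closest relative of MLL1, and is a much shorter gene of 20.2 kb on chromosome 7 (30568855 to 30589056). It had 15 peaks within 5 kb (8.40 to 24.7), 10 in the body and 5 in the flanks, and 86.8% of genes of like span had fewer. Per kb of span plus flanks, Kmt2a had 0.352 peaks and Kmt2b 0.497, a ratio of 0.709 with an interval of 0.372 to 1.41 that includes equal densities. Kmt2b lies among close neighbours, and 11 of its 15 peaks were also within 5 kb of another protein-coding gene (Igflr1, Zbtb32, U2af1l4, Psenen or Lin37). With such shared peaks left out, Kmt2b kept 4 peaks and the direction turned, at 2.23 times as many per kb in Kmt2a.

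Kmt2c and Kmt2d encode MLL3 and MLL4, large related enzymes that place the first methyl group on lysine 4 at enhancers, and their genes had the most unlike densities of the 3 pairs. Kmt2c spans 227.1 kb on chromosome 5 (25271795 to 25498855) and had 13 peaks (6.92 to 22.2), or 0.0548 per kb of span plus flanks. Kmt2d spans 42.4 kb on chromosome 15 (98831669 to 98874077) and had 32 (21.9 to 45.2), or 0.611 per kb. The density of Kmt2c was thus 0.0898 of that of Kmt2d (exact interval of the ratio of rates 0.0433 to 0.176), and 0.0734 in the bodies alone (0.0330 to 0.152).

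The peaks of Kmt2c fell into an upper and a lower cluster. Of its 11 body peaks, 5 lay within 42.4 kb of its lower end and 6 lay 176.7 kb or more from it, toward the upper end where the gene starts. The 134.3 kb between the peak at chr5:25314098-25314210 and the peak at chr5:25448424-25448476 held none, which is 59.2% of the span. Of genes of like span, 34.8% had a stretch that was a larger share of theirs. That share includes genes with few or no peaks (lower quartile 1 peak), where a long stretch follows from the count. Whether reads can be placed uniquely in that stretch was not tested. In Kmt2d the longest stretch without a peak was 5.71 kb, at the upper end that holds the annotated start, the median spacing of its peaks was 776 bp against 6656 bp in Kmt2c, and 95.2% of genes of like span had a stretch that was a larger share of theirs.

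Kmt2e encodes MLL5, the most distant member of the family, which binds methylated lysine 4 and has little or no methyltransferase activity of its own. It spans 71.2 kb on chromosome 5 (23433036 to 23504235) and had 13 peaks (6.92 to 22.2), or 0.160 per kb of span plus flanks, and 62.6% of genes of like span had fewer. The peaks leaned to 1 side: of 5 equal parts of the span, the part at the upper end held 6 of the 11 body peaks. Of the 13 peaks, 6 were also within 5 kb of Srpk2, whose span overlaps that end.

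Setd1a and Setd1b encode the catalytic subunits of the SET1 complexes, which make most of the trimethylated lysine 4 at promoters. Setd1a spans 22.7 kb on chromosome 7 (127777389 to 127800122) and had 11 peaks (5.49 to 19.7), only 5 of them in the body. Setd1b spans 26.6 kb on chromosome 5 (123142040 to 123168630) and had 28 (18.6 to 40.5), 24 of them in the body. Setd1b had the highest density of the 10 genes, at 0.765 per kb of span plus flanks, and 97.4% of genes of like span had fewer peaks. Its longest stretch without a peak was 3.71 kb.

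In the main count the 2 SET1 genes differed by more than counting error. Setd1a had 0.439 times the density of Setd1b per kb of span plus flanks (0.197 to 0.910), and 0.244 times in the bodies alone (0.0726 to 0.652). Of the 11 peaks of Setd1a, 7 were also within 5 kb of Hsd3b7, the next gene beyond its upper end. With peaks near another protein-coding gene left out, Setd1a kept 3 peaks and Setd1b 17, a ratio of 0.197. Other settings gave weaker contrasts: 0.522 with repeated lines kept and 0.545 within 10 kb. With only intervals at least as wide as the median it was 0.559, from 8 and 16 peaks. No interval was computed for these alternatives. The first 7.62 kb of Setd1a, 33.5% of its span counted from the start, held no peak. This was its longest stretch without one, and 74% of genes of like span had a stretch that was a larger share of theirs.

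Setd2 encodes the enzyme that trimethylates lysine 36 behind elongating RNA polymerase. It spans 86.1 kb on chromosome 9 (110532500 to 110618633) and had 16 peaks (9.15 to 26.0), or 0.166 per kb of span plus flanks, and 63.2% of genes of like span had fewer. Nsd1, whose product places the lower methylation states of lysine 36, spans 108.5 kb on chromosome 13 (55209782 to 55318325) and had 23 peaks (14.6 to 34.5), or 0.194 per kb, and 67.4% of genes of like span had fewer. In both genes the middle was sparse: the 2 outermost of 5 equal parts of the span held 81.8% of the 11 body peaks of Setd2 and 81.3% of the 16 of Nsd1. The longest stretch without a peak was 32.5 kb in Setd2 and 53.4 kb in Nsd1. Of genes of like span, 49% and 34.8% had a stretch that was a larger share of theirs.

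Dot1l encodes the only known methyltransferase of lysine 79, which has no SET domain. It spans 40.4 kb on chromosome 10 (80755101 to 80795461) and had 23 peaks (14.6 to 34.5), or 0.457 per kb of span plus flanks, and 88.6% of genes of like span had fewer. Its 20 body peaks were spread over all 5 equal parts of the span, with 4, 2, 3, 4 and 7 from the start onward. In order of density the genes ran Setd1b, Kmt2d, Kmt2b, Dot1l, Kmt2a, Setd1a, Nsd1, Setd2, Kmt2e and Kmt2c, and each gene's Poisson interval overlapped that of the next. The narrowest overlap was between Kmt2e (0.0853 to 0.274 per kb) and Kmt2c (0.0292 to 0.0938).

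**Figure D2:**
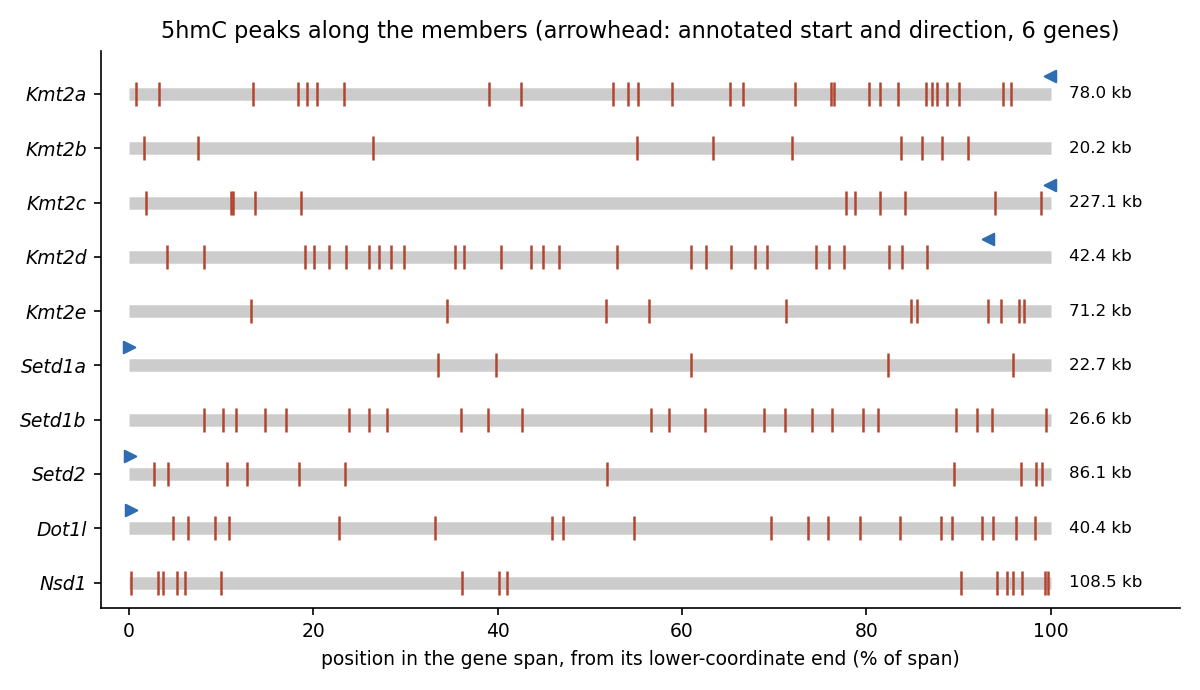
Positions of the 164 body peaks (ticks) along each of the 10 genes, as percent of the gene span from its lower-coordinate end, with the span in kb at the right and the annotated start and direction (arrowheads) of the 6 genes with a RefSeq window. The longest stretch without a tick is 3.71 kb in Setd1b, 5.71 kb in Kmt2d, at its upper end, and 134.3 kb, or 59.2% of the span, in Kmt2c.

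Longer genes of the 10 had lower densities, with a Spearman correlation across the 10 genes of -0.70 between span and peaks per kb of span plus flanks. The genes share 1 library and are not replicates, and over all protein-coding genes the correlation was 0.0864. Along the span, the 2 outermost of 5 equal parts held 88 of the 164 body peaks, or 53.7% (Wilson interval 46.0 to 61.1%), where an even spread gives 40%. Over the 9121 protein-coding genes within the same range of span they held 42.8%. Without Kmt2c the share of the other 9 genes was 51.6% (43.8 to 59.4%), and Kmt2d ran against it, with 21.4% of its 28 body peaks there. The share was highest in Kmt2c and Setd2 (81.8% each) and Nsd1 (81.3%). In the remaining genes it ran from 40% in Setd1a and 41.7% in Setd1b to 63.6% in Kmt2e. The flanks held 0.410 peaks per kb and the bodies 0.227 in the 10 genes, against 0.182 and 0.131 over all protein-coding genes.

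None of the 6 RefSeq start windows of these genes was overlapped by a peak, which was the common case: 4.55% of the 21263 windows of protein-coding genes were. The 6 windows held 27 CpG (Kmt2d) to 56 CpG (Kmt2c), and 20.7% and 0.240% of all windows held as many. Of the 4394 windows with at least 27 CpG, 0.888% were overlapped by a peak (Wilson interval 0.650 to 1.21%), against 5.51% (5.17 to 5.86%) of those with fewer. With 6 windows, a difference from either share was not detectable.

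The nearest peak lay 1.01 kb from the annotated start in Dot1l, 2.23 kb in Kmt2c, 2.28 kb in Setd2, 2.84 kb in Kmt2d, 3.30 kb in Kmt2a and 3.73 kb in Setd1a. Of these 6 starts, 0 had a peak within 1 kb (Wilson interval up to 39.0%), where 27.5% of all starts had one, so a share like that of other genes was within counting error. Nsd1, which had no window, had peaks at -0.522 and 0.206 kb from its lower-coordinate end, and its strand was not available. Within 2.5 kb, 3 of the 6 had a peak, as did 50.8% of all starts. From 2.5 to 5 kb downstream the 6 genes had 9 peaks, or 0.600 per kb (0.274 to 1.14), against 0.314 at CpG-rich starts and 0.227 at all starts. The interval includes the value at CpG-rich starts and lies above that at all starts. The same held from 10 to 20 kb downstream, at 0.350 per kb (0.217 to 0.535) against 0.246 and 0.191, so the excess was not particular to the nearer stretch.

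**Figure D3:**
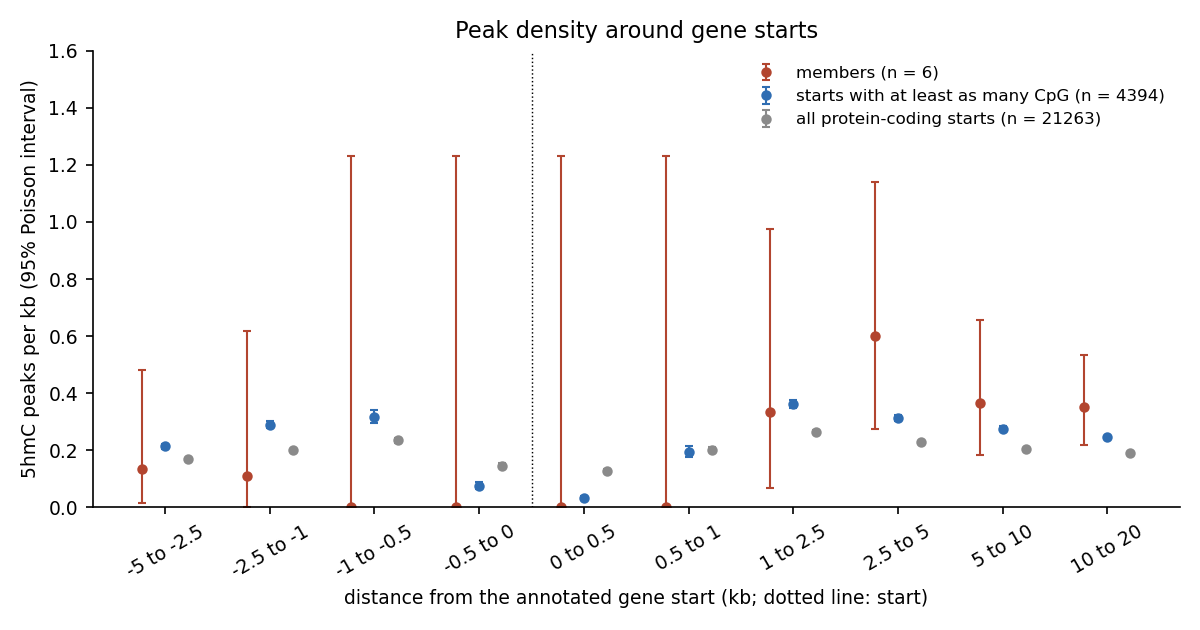
Peaks per kb (vertical axis, exact Poisson intervals at 95%) by distance from the annotated start in kb, negative upstream, for the 6 genes with a RefSeq window, for the 4394 starts with at least 27 CpG and for all 21263 starts of protein-coding genes. The 6 genes have 0 peaks within 1 kb of the start on both sides, and CpG-rich starts have 0.0314 per kb in the first 500 bases downstream.

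Of the 205 peaks, 1 overlapped a start window of any RefSeq gene. It lay in the lower flank of Kmt2b (chr7:30565134-30565230) and shared 54 bases, with 2 CpG, with the window of its neighbour Igflr1, which holds 5 CpG in 300 bases. The first 30 shared bases, on the plus strand of GRCm38.p6 (chr7:30565177-30565206), are shown as the only peak sequence that the RefSeq windows hold, with CpG in capitals.
Igflr1: tgagaCGggtgcccttgctctccacccaag

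The surroundings of these genes also differed in peaks. In the sequence from 5 kb to 500 kb on both sides, densities ran from 0.120 per kb around Kmt2e to 0.505 around Dot1l. Kmt2d and Setd1b stood above their surroundings by more than counting error, at 2.20 times (1.47 to 3.18) and 2.05 times (1.34 to 3.01). Kmt2c and Setd2 stood below theirs, at 0.297 times (0.155 to 0.520) and 0.521 times (0.294 to 0.860). The intervals of the other 6 genes included equal densities. In all, 5 of the 10 genes were denser than their surroundings, as were 45.3% of protein-coding genes. Pooled, the 10 genes had 0.249 peaks per kb and their surroundings 0.304, a ratio of 0.818 (0.707 to 0.943). That direction rests on Kmt2c, and without it the ratio was 1.03 (0.886 to 1.19).

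**Figure D4:**
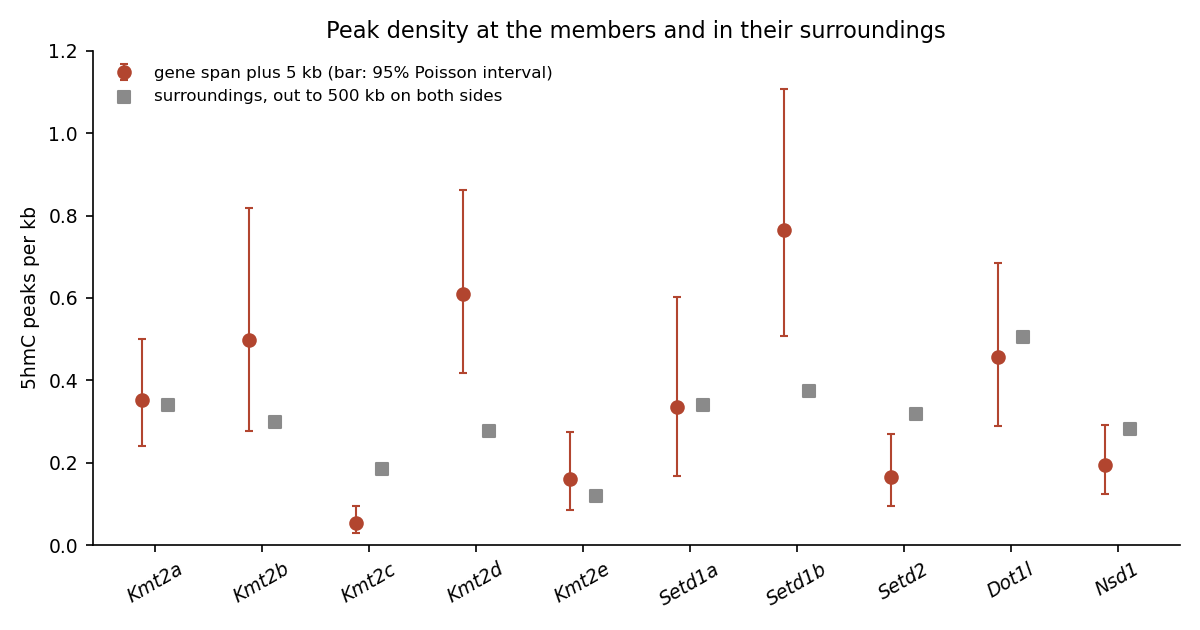
Peaks per kb of each gene span plus 5 kb (circles, exact Poisson intervals at 95%) beside those of its surroundings out to 500 kb on both sides (squares). Kmt2d and Setd1b lie above their squares, Kmt2c and Setd2 below theirs, and the intervals of the ratios of the other 6 include 1.

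Neighbouring genes were close by, and 71 of the 205 peaks were also within 5 kb of another protein-coding gene. The same share over all peaks is not given here. Nsd1 shared 8 peaks with Rab24, 7 with Prelid1 and 3 with Mxd3, Dot1l shared 7 with Plekhj1 and 4 with Sf3a2, and Setd1b shared 6 with Rhof and 5 with Hpd. Setd2 shared 6 with Nradd, 4 with Nbeal2 and 1 with Kif9, and Setd1a shared 1 each with Orai3 and Fbxl19. Kmt2a shared 5 with Ttc36 and 4 with Tmem25, Kmt2d shared 5 with Prkag1 and 1 with Rhebl1, and Kmt2c shared 2 with Galnt11. The authors' list repeats some lines, and 27 of the 205 intervals were listed more than once, at most 4 times. These 205 intervals took 237 lines, and the whole list has 223267 lines for 208468 intervals. Annotated genes of any kind numbered at least 2 within 5 kb of all 27, and of 62 of the 178 that were not repeated. Repeats were in 15 of 41 flank peaks (36.6%) and 12 of 164 body peaks (7.32%).

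Subunits of the MLL and SET1 complexes had a peak within 5 kb at 14 of 14 genes, beside 73.1% of protein-coding genes, with a median of 0.212 peaks per kb of span plus flanks, against 0.107 for all protein-coding genes. The densest were Men1, the gene of menin, which tethers MLL1 to chromatin, with 14 peaks in and around its 5.92 kb (0.880 per kb), Cxxc1, a CpG-binding subunit of the SET1 complexes (0.654), and Pagr1a, a subunit of the MLL3 and MLL4 complexes (0.406). Hcfc2 had the most peaks, 27. Kdm6a, a demethylase of the MLL3 and MLL4 complexes on chromosome X, had 1 in 119.1 kb. Without the 2 genes on X the median was 0.242 per kb.

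Fusion partners of MLL1 and factors of transcription elongation had a peak at 13 of 13 genes, again beside 73.1% of protein-coding genes, with a median of 0.205 per kb of span plus flanks. Aff1, the partner known as AF4, had the most peaks and the highest density of the list, 122 (101.3 to 145.7) in and around its 163.0 kb, or 0.705 per kb, beside a median of 13 peaks for genes of its span. By density Mllt1, which encodes the fusion partner ENL, came next at 0.586 per kb (31 peaks), and then Cdk9, the elongation kinase, at 0.471 per kb (8 peaks). Afdn had the lowest density of the list, with 4 peaks in 145.4 kb.

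Other histone lysine methyltransferases had a peak at 21 of 21 genes, beside the same 73.1%, with a median of 0.137 per kb, or 0.149 for the 20 that are not on X. The densest were Ehmt2 with 21 peaks (0.820 per kb), which methylates lysine 9, Kmt5c with 9 (0.517), which acts on lysine 20 of histone H4, and Prdm2 with 59 (0.511). Smyd3 had the most peaks, 75 over 566.1 kb. Ezh2, the catalytic subunit of Polycomb complex PRC2, had 4 peaks (1.09 to 10.2) and Prdm9, which marks recombination sites in germ cells, had 1. More peaks than the median of genes of like span were found at 10 of the 10 genes, 9 of 14 complex subunits, 10 of 13 fusion partners and elongation factors and 12 of 21 other methyltransferases, beside 44.6% of all protein-coding genes. The order-statistic intervals of the median densities overlapped, but genes are not replicates and the overlap is no test between lists. The intervals were 0.160 to 0.611 for the 10 genes and 0.117 to 0.406 for complex subunits. For fusion partners the interval was 0.0585 to 0.471, and for other methyltransferases 0.0720 to 0.281.

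**Figure D5:**
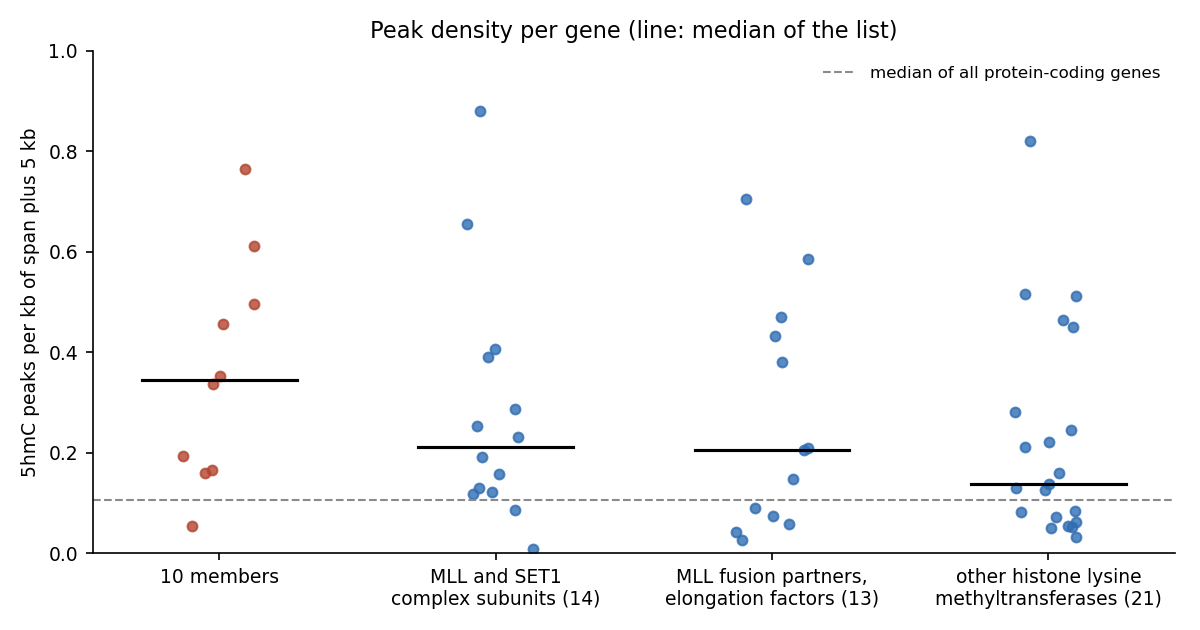
Peaks per kb of span plus 5 kb for each gene (points) of the 10 genes and of 3 related lists, with the median of each list (line) and of all protein-coding genes (dashed). The medians are 0.344, 0.212, 0.205 and 0.137 per kb from left to right, above the dashed line at 0.107, and the points of all 4 lists spread widely around them.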

How the data were processed

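Per the labels' protocols, 5hmC was given an azide-bearing glucose, biotinylated, captured and sequenced in paired ends. The deposited files hold positions of peaks and no value per peak. Peaks were called with PICS, per the file headers. The read minimum, stated for forward and reverse reads, was 3 in a window and 10 in a region. The headers also give a limit of 5 sites for each gene and extend genes by 5000 bp upstream. Setd1a, with the fewest peaks of the 10 genes, had 11 listed. How these gene settings acted on the listed peaks and on the repeated lines was not tested. The build is mm10, per the submitters' processing notes. No source used here names the aligner. Depth per sample is unknown.

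Repeated lines were counted once. Genes came from RefSeq (GRCm38.p6, the chromosomes of mm10), without models below 3 Mb, which lie on scaffolds. Peaks were assigned by midpoint to each gene span plus 5 kb. Listed positions are rounded in steps of 2 to 8 bp at these genes, so widths and short distances are coarse. Intervals were computed with scipy 1.17.1 (Python 3.11.15), and the counting was tested on simulated data. Named are the 10 genes, the 3 densest and the most peak-rich of each related list, any gene with no peak, and genes that share a peak, of which 1 is not reported here. Kdm6a, Afdn, Ezh2, Prdm9 and the printed sequences were added after their values were seen. The genes and lists were chosen with earlier results of these data known. Alternatives were repeated lines kept, other flanks, overlap in place of the midpoint, wider peaks, peaks near 1 gene only and Kmt2c left out.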

Additional observations from a re-analysis of the deposited data

How the results depend on the processing

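The number of genes with a peak stayed at 10 of 10 under the 9 alternatives run for it, which do not include leaving out Kmt2c or changing the genes of like span, the parts of the span or the surroundings. The 205 peaks became 237 with repeated lines kept, 164 in the gene span alone, 244 within 10 kb and 116 with only intervals at least as wide as the median; each follows from the alternative's own construction. With peaks near 1 protein-coding gene only, an alternative chosen after seeing the data, they were 134, the median was 0.1295 per kb (0.0431 over all genes), the ratio of Kmt2a to Kmt2b reversed to 2.23 and that of Setd1a to Setd1b moved to 0.197. That alternative drops peaks of gene-dense places but keeps their length. Without Kmt2c, also chosen after seeing the data, the ratio to the surroundings reversed to 1.03. The ratio of Kmt2c to Kmt2d stayed between 0.0734 and 0.104. That of Setd1a to Setd1b ran from 0.197 to 0.559, the latter with only intervals at least as wide as the median. In 2 alternatives, wider intervals and peaks near 1 gene only, 8 of the 10 genes had more peaks than genes of like span, and 9 had with a flank of 2.5 kb. Without replicate 1 or without replicate 2 the values are the same by construction, since the 2 lists do not differ. No paired analysis was possible because the lists are identical and the groups share no test. A stricter score could not be applied, since the lists hold none.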
